A study of Mus musculus with 6 samples.

Results

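Integrins that contain the alpha-v chain, or that bind the same short Arg-Gly-Asp (RGD) motif as alpha-v integrins, were described in primary chondrocytes that were grown from Slc39a13-KO mice and their wild-type counterparts. The set was named by gene and holds 8 genes: the alpha chains Itgav, Itga5, Itga8, Itga4 and Itga9, and the beta chains Itgb3, Itgb5 and Itgb8. All of their 26 probe sets were taken, of 34945 probe sets with 1 gene symbol, which stand for 18193 genes. A probe set is a group of short probes against one transcript, and its signal is a linear brightness in arbitrary units. Of the 26 probe sets, 14 from 7 genes were bright enough to be tested and 12 were too dim. Both tested and untested probe sets are given here.

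There were 3 arrays of wild-type cells and 3 arrays of homozygous Slc39a13-KO cells, with no treatment in either group. Slc39a13 encodes a zinc transporter, and the KO allele, made by targeting R1 embryonic stem cells, lacks several exons in every cell of the body and carries a Neo cassette in their place. The cells were freed by collagenase from cartilaginous rib cages of newborn mice, strained and cultured without a sort, so the cultures can hold cells other than chondrocytes. The labels do not say whether arrays of one group came from separate animals or cultures. The p-values therefore reflect array-to-array spread that could be in part technical in origin.

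Integrins are cell-surface receptors made of 1 alpha and 1 beta chain that connect the matrix to the actin skeleton. The alpha-v chain pairs with several beta chains, and some of these pairs, the one with the beta8 chain among them, bind an RGD site in the latent TGF-beta complex and release active TGF-beta. The alpha5 and alpha8 chains pair with the beta1 chain and bind RGD in fibronectin and nephronectin. The alpha4 and alpha9 chains are not RGD receptors in the main: they bind other sites, for example in VCAM-1 and tenascin-C, so the RGD name covers only some of the 8 genes.

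The label of the arrays was first checked at the targeted gene. Slc39a13 read 901, 1081 and 991 in wild type and 100, 196 and 165 in KO. Its log2 fold change was -2.67 (SE 0.22, adjusted p = 0.000535, limma). All KO arrays lay below all wild-type arrays. Median signals of the 6 arrays ranged from 80.7 to 108, and the correlations of KO replicate 1 with the other arrays (0.921 to 0.925) were lower than those among the other 5 (0.944 to 0.960). Xist was high on 1 array of each group (5194 for wild-type replicate 3, 6445 for KO replicate 2) and read 79.0 to 107 elsewhere. The Y-linked Eif2s3y read 3.83 and 35.9 on those arrays and 1073 to 1497 elsewhere. Each group thus held arrays of both sexes, from more than 1 animal, although the labels give no sex. Over all 23294 tested probe sets, 802 were higher in KO cells and 785 lower. After each array was centred on its median, these counts were 131 and 259.

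The beta8 chain gene, Itgb8, was the only integrin gene of the set with a called change, and it was lower in KO cells. Its single probe set (1436223_at) read 276, 275 and 283 in wild type and 96.5, 146 and 111 in KO. The wild-type values lay close together, and every KO value lay below all of them. The means were 278 ± 4.49 and 118 ± 25.4 (SD, n = 3 each), a 2.36-fold lower signal. On the log2 scale, with a pseudocount of 7.96 added to each signal, the change was -1.20 (SE 0.21, 95% interval -1.67 to -0.74, adjusted p = 0.00995, limma). The beta8 chain pairs only with alpha-v, and its product is a receptor of latent TGF-beta. In a culture of mixed cells, fewer cells of a type that express a gene and less RNA per cell cannot be told apart.

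The call at Itgb8 depended on each of the wild-type arrays. Without wild-type replicate 1, 2 or 3 the adjusted p was 0.0529, 0.0615 and 0.0535, while the log2 fold change stayed between -1.21 and -1.19. Leaving out a KO array kept the call, with log2 fold changes of -1.08, -1.36 and -1.17 without KO replicates 1, 2 and 3. Calls over all tested probe sets were 802 higher and 785 lower in the main fit. They fell to 280 and 263, 248 and 188, and 320 and 274 without wild-type replicates 1, 2 and 3. Without KO replicates 1, 2 and 3 they were 782 and 804, 440 and 503, and 1074 and 1209. Without both arrays of high Xist the change was -1.35 with an adjusted p of 0.0742.

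**Figure D1:**
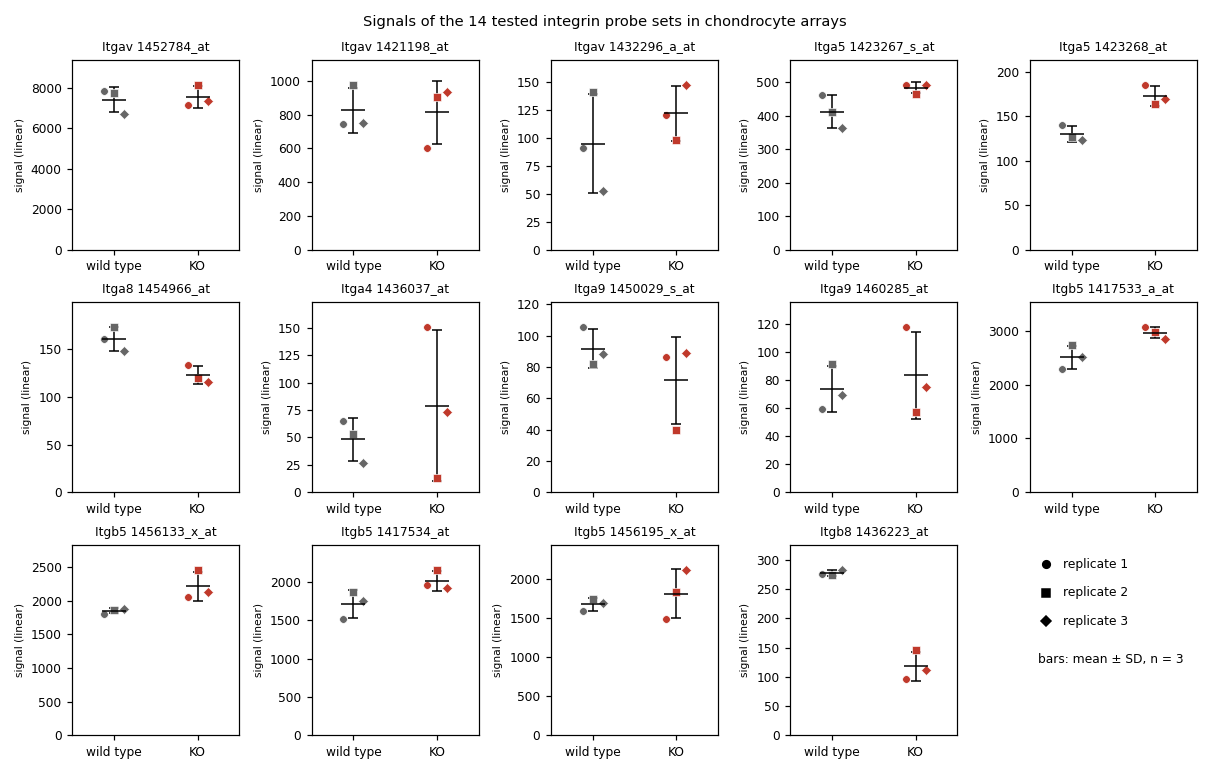
Signal of each of the 14 tested integrin probe sets (y axis, linear, arbitrary units, from 0) on the 3 wild-type and 3 KO arrays, with the mean and SD as bars and the replicate as the point's shape. Itgb8 reads 275 to 283 in wild type and 96.5 to 146 in KO, and Itga4 is spread from 13.1 to 150. The Itga5 and Itgb5 groups are separated by a smaller share of their signal, except on Itgb5 1456195_x_at, where they overlap.

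The stretches of 250 bases before the start of Itgb8 and of Itgb5 are shown because, among the beta chains of the 8-gene set, these had tested probe sets, one called lower and the other not called. Promoter entries of RefSeq (build GRCm38.p6) matched 7 of the 8 genes. Both stretches are printed 5′ to 3′ on the strand of the gene, with motif matches in capitals. The Itgb8 stretch is chr12:119238277-119238526 on the minus strand and the Itgb5 stretch is chr16:33829415-33829664 on the plus strand.
Itgb8: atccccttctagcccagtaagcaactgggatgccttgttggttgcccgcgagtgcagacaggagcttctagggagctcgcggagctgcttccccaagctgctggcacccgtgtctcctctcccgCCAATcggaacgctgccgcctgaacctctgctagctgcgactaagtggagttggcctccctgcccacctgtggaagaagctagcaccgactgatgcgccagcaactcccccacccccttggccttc
Itgb5: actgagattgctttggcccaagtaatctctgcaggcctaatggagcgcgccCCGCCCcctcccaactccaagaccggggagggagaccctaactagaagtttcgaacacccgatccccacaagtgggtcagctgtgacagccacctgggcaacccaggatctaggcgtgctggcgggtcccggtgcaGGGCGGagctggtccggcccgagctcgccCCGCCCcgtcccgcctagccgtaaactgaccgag
Both stretches are rich in G and C, at 62.4% in Itgb8 and 65.2% in Itgb5. The motifs searched on both strands were the GC box (GGGCGG, in 32.7% of 32851 such windows before a gene start), the CCAAT box (CCAAT, 33.8%), the TATA box (TATAAA, 12.4%), the cyclic AMP response element (TGACGTCA, 1.55%) and the AP-1 site (TGANTCA, 6.75%). The Itgb8 stretch held 1 CCAAT match, 126 bases before the start, and 0 GC boxes. The Itgb5 stretch held 3 GC boxes, at 199, 63 and 34 bases before the start, and 0 CCAAT matches. Neither held any of the other letters, which says only that these letters are not in this window. Among the alpha chains, GC box letters were found 2 times before Itga5 and 1 time before Itga4.

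Itgb5, whose product pairs with alpha-v and binds vitronectin, was bright and no probe set of it passed the test. Its brightest probe set (1417533_a_at) read 2292, 2724 and 2503 in wild type and 3061, 2976 and 2849 in KO. The groups did not overlap, and the log2 fold change was 0.24 (SE 0.09, 95% interval 0.05 to 0.44, adjusted p = 0.130, limma). The probe sets 1456133_x_at (0.25, adjusted p = 0.128) and 1417534_at (0.23, adjusted p = 0.198) did not overlap between the groups either, while 1456195_x_at (0.10, adjusted p = 0.675) did. Several probe sets of 1 gene share its transcripts and are not independent. Each interval runs no higher than 0.46 on the log2 scale, the upper bound of 1417534_at.

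The change of Itgb8 was set against those of its alpha chain and of Itgb5 within each array. The difference of log2 fold changes, Itgb8 minus the other, was -1.45, -1.46, -1.44 and -1.30 against the 4 Itgb5 probe sets. Against the 3 tested Itgav probe sets it was -1.23, -1.17 and -1.62. In each of the 7 pairs every KO array lay below every wild-type array. Itgb8 was taken for this because it had the lowest p of the integrin probe sets. The same Itgb8 values enter all 7 pairs, so the pairs are not independent and do not add to the result at Itgb8. An exact two-sided permutation test gave p = 0.1 for each pair (0.1 after Benjamini-Hochberg adjustment over the 7), which is the smallest p that 3 against 3 arrays allow, so this design could not pass the threshold.

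Itgb3, the beta chain that forms the vitronectin receptor of osteoclasts with alpha-v and the fibrinogen receptor of platelets with Itga2b, was dim. Its 2 probe sets read between 3.89 and 86.0 over all arrays and fell under the filter. Fitted without the filter, 1455257_at had a log2 fold change of -0.61 (adjusted p = 0.709, limma) and 1421511_at of 0.48 (adjusted p = 0.786). The groups overlapped on both. No direction could be read for Itgb3 at this brightness.

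Itgav, the alpha chain shared by these receptors, was bright and showed no called change. Its brightest probe set (1452784_at) read 7831, 7718 and 6685 in wild type and 7150, 8155 and 7348 in KO. The groups overlapped almost fully, with a log2 fold change of 0.03 (95% interval -0.17 to 0.23, adjusted p = 0.885, limma). This sign turned to -0.07 with median centring. A second probe set, 1421198_at, had means of 825 and 813 and a change of -0.04 (95% interval -0.43 to 0.36, adjusted p = 0.930). The third tested one, 1432296_a_at, was dim, at 94.6 and 122 (0.42, adjusted p = 0.540). Leaving out wild-type replicate 3 brought that value to 0.080, and leaving out replicate 2 to 0.73. Of the 2 untested Itgav probe sets, 1432678_at read 32.6, 24.0 and 17.7 in wild type and 119, 91.7 and 44.6 in KO. There the KO arrays were all higher, with a log2 fold change of 1.44 (SE 0.51, adjusted p = 0.164) in the fit without the filter, so it was not called. The other, 1432679_at, overlapped between the groups.

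Itga5, the alpha chain of the main fibronectin receptor, read 461, 411 and 364 in wild type and 493, 464 and 492 in KO on 1423267_s_at. The KO arrays lay just above the wild-type arrays, with a log2 fold change of 0.23 (95% interval -0.06 to 0.52, adjusted p = 0.325, limma). On 1423268_at it read 140, 127 and 123 against 186, 164 and 170, a change of 0.39 (95% interval -0.07 to 0.85, adjusted p = 0.292). Again the KO arrays were all higher and the change was not called. The untested 1458996_at also had all KO arrays above the wild-type arrays (14.3, 15.4 and 3.53 against 47.3, 30.0 and 38.4), with 1.34 and an adjusted p of 0.205 without the filter. On the untested 1457561_at the groups overlapped.

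Itga8, the nephronectin receptor chain, read 160, 173 and 148 in wild type and 133, 120 and 115 in KO on 1454966_at. The KO arrays were all lower, with means of 160 ± 12.3 and 123 ± 9.56 (SD, n = 3 each). The log2 fold change of -0.36 was not called (95% interval -0.85 to 0.12, adjusted p = 0.357, limma). Its other probe set, 1427489_at, was under the filter and overlapped between the groups.

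Itga4 and Itga9, which form receptors for VCAM-1 and for tenascin-C, were near or under the filter on all of their probe sets. Of the 5 Itga4 probe sets only 1436037_at was tested, and it read 65.0, 53.0 and 26.9 in wild type and 150, 13.1 and 73.3 in KO. The KO arrays spanned the wild-type arrays, and the interval of the change, -1.31 to 1.85 on the log2 scale, was too wide to place it (0.27, adjusted p = 0.857, limma). The other 4 Itga4 probe sets lay between 1.99 and 52.0. For Itga9, 1450029_s_at read 105, 81.9 and 88.1 against 86.4, 39.6 and 88.8 (-0.39, adjusted p = 0.583, and -0.055 without KO replicate 2). The second, 1460285_at, read 59.4, 91.7 and 69.6 against 118, 56.9 and 75.3 (0.13, adjusted p = 0.874). Both overlapped between the groups, as did the untested 1420860_at.

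**Figure D2:**
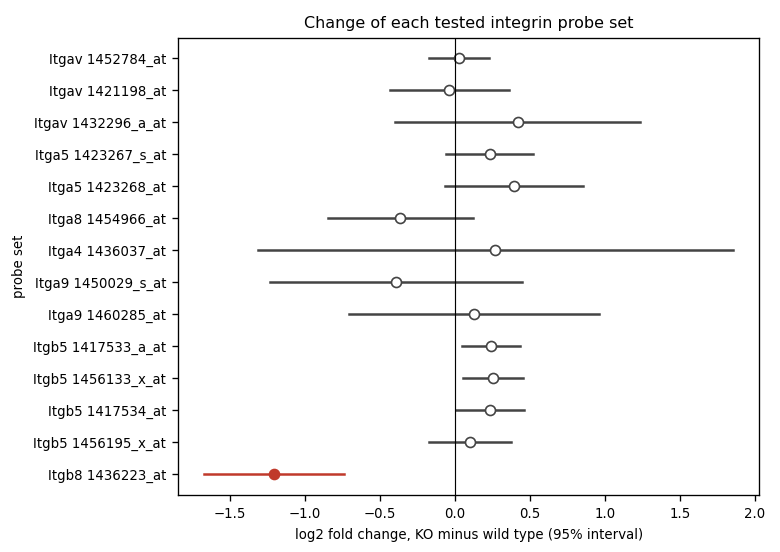
Log2 fold change (x axis, KO minus wild type) of the 14 tested integrin probe sets with 95% intervals from limma, filled where the adjusted p was under 0.05. Itgb8 (-1.20) stands alone on the left, and the Itga4 interval, from -1.31 to 1.85, is the widest.

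Over the 14 tested probe sets, 0 were called higher, beside 3.44% of all tested probe sets, and 1 was called lower, beside 3.37%. The 13 others were not called. Of the 14, 4 had an unadjusted limma p under 0.05, and these were Itgb8 and probe sets of Itgb5. The log2 fold change was positive for 10 and negative for 4, with a median of 0.18. The 4 probe sets of Itgb5, which are not independent, were all among the positive ones. Over all 23294 tested probe sets, 12022 were positive and 11272 negative, with a median of 0.01. KO arrays all lay above wild-type arrays on 5 of the 14 (Itga5 on 2 probe sets, Itgb5 on 3), where 15.1% of all tested probe sets did so. They all lay below on 2 (Itga8 and Itgb8), where 13.7% did. Itgav, Itga4 and Itga8 lie on chromosome 2, as Slc39a13 does, with 265, 279 and 806 protein-coding genes between them and it in RefSeq. Itgb8 lies on chromosome 12.

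The other chains that pair with these integrins showed no called change. Itgb1, the common beta chain of alpha5, alpha8, alpha4, alpha9 and also alpha-v, had probe sets with estimates of either sign. Its probe set 1426918_at had means of 5543 and 4754 (-0.24, adjusted p = 0.318, limma) and 1452545_a_at of 4363 and 5026 (0.20, adjusted p = 0.151). The dimmer 1427771_x_at had a change of -0.56 (adjusted p = 0.134). Itga2b, the platelet partner of the beta3 chain, was not called (-0.18, adjusted p = 0.584). Of 5 tested probe sets in these partner genes, 0 were called in either direction.

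Ligands of the 8 integrins changed in both directions. Of 36 tested probe sets from 16 ligand genes, 7 were called higher (19.4%, from 6 genes) and 5 lower (13.9%, from 3 genes). Over all tested probe sets these shares were 3.44% and 3.37%. Their median log2 fold change was 0.05. Ibsp, an RGD protein of mineralizing cartilage and bone, rose from 657 ± 157 to 1400 ± 417 (SD, n = 3 each, log2 fold change 1.07, SE 0.22, adjusted p = 0.0198, limma). Vcam1, the cell-surface ligand of alpha4 integrin, fell by 0.88 on the log2 scale, from 527 ± 16.9 to 286 ± 54.1 (SE 0.15, adjusted p = 0.0104) on 1448162_at. Its probe sets 1415989_at (-0.59, adjusted p = 0.279) and 1451314_a_at (-1.29, adjusted p = 0.192) were not called, nor was 1417485_at of Ibsp (0.91, adjusted p = 0.109). Npnt, which encodes nephronectin, the ligand of alpha8 integrin, fell by 0.76 (SE 0.19, adjusted p = 0.0418) on 1452107_s_at and by 0.67 (adjusted p = 0.0195) on its brightest probe set 1452106_at, and its dimmer 1426560_a_at (-0.09) and 1426561_a_at (-0.20) were not called.

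Ccn1, a matricellular ligand of alpha-v integrins, was called lower only on its dimmer probe sets. The change was -0.69 (SE 0.11, adjusted p = 0.00624, limma) on 1442340_x_at and -0.49 on 1457823_at. Its brightest probe sets, 1416039_x_at and 1438133_a_at, had changes of -0.05 (adjusted p = 0.758) and -0.12 (adjusted p = 0.410), so the probe sets of this gene disagree. The other ligand genes called higher, named because they were called, were Thbs1, Emilin1, Postn, Tgfbi and Tnc. Their called changes ran from 0.45 (Tnc) to 0.63 (Thbs1) on the log2 scale. Tgfbi was called on 1448123_s_at alone of its 4 probe sets, and its brightest, 1456250_x_at, had a change of 0.18 (adjusted p = 0.489). Thbs1 was called on 1450377_at and not on 1460302_at (0.12, adjusted p = 0.472). Tnc and Emilin1 encode matrix proteins bound by alpha9 or alpha4 integrins, and Postn and Tgfbi encode matrix proteins bound by alpha-v integrins.

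Genes of latent TGF-beta, its release and its receptors were called in both directions. Of 24 tested probe sets from 10 genes, 1 was called higher (4.17%) and 3 lower (12.5%). Over all tested probe sets these shares were 3.44% and 3.37%. The median of the log2 fold changes was 0.12. Tgfbr2, the type II receptor, read 4808, 5698 and 7000 in wild type and 3534, 3433 and 3276 in KO. All KO arrays were lower, by 0.76 on the log2 scale on the mean (SE 0.12, adjusted p = 0.00780, limma). Its probe set 1425444_a_at was not called (-0.49, adjusted p = 0.192). Tgfb2, a ligand, was lower on 2 of its 4 tested probe sets, with -0.54 (SE 0.13, adjusted p = 0.0403) on 1450923_at and -0.50 (adjusted p = 0.0493) on 1450922_a_at. Its brightest, 1423250_a_at (-0.29, adjusted p = 0.169), and 1438303_at (-0.23, adjusted p = 0.579) were not called. Mmp2, a metalloproteinase that can release TGF-beta, was higher on 1439364_a_at by 0.45 (SE 0.10, adjusted p = 0.0328), and its other probe set 1416136_at had a change of 0.39 that was not called (adjusted p = 0.0971).

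Genes linked to integrin activation, to beta tails or to actin were called lower on 6 of 28 tested probe sets, from 12 genes, and higher on 1. These are 21.4% and 3.57% of the list, beside 3.37% and 3.44% of all tested probe sets, and the list's median log2 fold change was 0.01. This list and the other related lists were chosen with earlier results of these data known, so such shares are a description only. The genes of this list, Sharpin and Itgb1bp1 among them, differ in role, so the counts give no direction of integrin activation. Dab2, an adaptor that binds integrin beta tails and takes part in endocytosis and in TGF-beta signalling, was called lower on 3 of its 4 probe sets. These made up 3 of the 6 lower calls of the list. Dab2 was also lower on every KO array on 1429693_at, which was not called (-0.79, adjusted p = 0.0728, limma). Its probe set 1430604_a_at read 1454, 1498 and 1435 in wild type and 712, 815 and 700 in KO, a change of -0.97 (SE 0.10, adjusted p = 0.00099, limma). Vcl, the focal adhesion protein vinculin, went from 6915 ± 155 to 4111 ± 472 (SD, n = 3 each) on 1416156_at, a change of -0.76 (SE 0.09, adjusted p = 0.00227), and 1416157_at was not called (-0.42, adjusted p = 0.226). Parva, alpha-parvin, was lower on 1431375_s_at (-0.38, adjusted p = 0.0270) and not on 1416818_at (0.01, adjusted p = 0.954). Ilk, the kinase it binds and the remaining gene called lower, had a change of -0.30 (adjusted p = 0.0350). Tln2, a talin, which binds beta tails and activates integrins, was higher on 1429111_at (0.76, SE 0.14, adjusted p = 0.0114). Its dimmer 1435700_at overlapped between the groups and was not called (0.84, adjusted p = 0.512). The brighter talin gene Tln1 was not called on its brightest probe set 1448402_at (-0.14, adjusted p = 0.455).

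Of the 11 list probe sets named by the largest change in their gene, 4 kept their call when each array was left out in turn: Dab2, Vcl, Tgfbr2 and Ccn1, with highest adjusted p-values (limma) of 0.0110, 0.0209, 0.0440 and 0.0403. The 7 others lost it. Ibsp was lost without wild-type replicate 1 or KO replicate 2 (adjusted p up to 0.0695), and Vcam1 and Tln2 without wild-type replicate 1 or 2 (up to 0.0617 and 0.0600). Parva was lost without any 1 of the wild-type arrays (up to 0.133), and Npnt without any of these or KO replicate 1 (up to 0.175). Tgfb2 was lost without wild-type replicate 2 or 3 or KO replicate 1 or 2 (up to 0.141), and Mmp2 without wild-type replicate 1 or 3 or KO replicate 1 or 2 (up to 0.123). Dab2 alone kept its call in every other fit run on its probe set as well, with an adjusted p up to 0.0479. With no trend in the limma fit, the 10 others lost theirs. Without both arrays of high Xist Vcl was still called, and the rest of the 10 were not. Median centring ended the calls of Ccn1 (adjusted p = 0.0568), Ibsp, Npnt, Tgfb2, Mmp2, Tln2 and Parva, and left those of Vcam1, Tgfbr2 and Vcl.

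**Figure D3:**
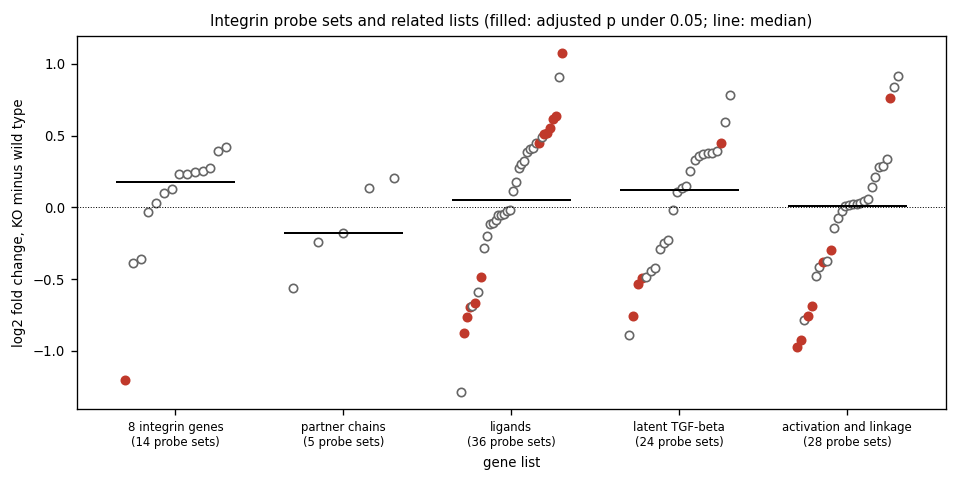
Log2 fold change (y axis, KO minus wild type) of each tested probe set of the 8 integrin genes and of the 4 related lists, sorted within a list, filled where the adjusted p was under 0.05, with the median as a line. The integrin median is 0.18 with 1 filled point at -1.20, while the ligands have 7 filled points above 0 and 5 below.

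Markers of other cells differed between the groups beside Itgb8 and the genes above. Mesothelial cells line body cavities, such as that inside the rib cage, and 10 of their 12 markers were called lower in KO cells on the brightest probe set. Their summed signal was 5388, 5673 and 9163 in wild type and 1248, 1263 and 794 in KO. Of the other markers, Wt1 was lower but not called (-1.73, adjusted p = 0.0623, limma). Muc16 was under the filter on its single probe set and went the other way. Its means were 33.7 in wild type and 70.3 in KO, with all KO arrays higher. Itgb8 read 276, 275 and 283 on the same wild-type arrays and was, like the mesothelial sum, lower on every KO array. The part of these cells in the lower Itgb8, Vcam1, Dab2, Vcl and Tgfbr2 signals was not tested.

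Markers of the labelled cell type were detected in both groups, as were most fibroblast and smooth muscle markers. Passing the filter therefore does not mark out a single cell type. All 13 chondrocyte markers passed the filter, with summed signals of 113940 to 137516 in wild type and 155340 to 217411 in KO, and of these 4 were called higher and 1 lower on the brightest probe set. Fibroblast markers summed to 40729 to 50201 and to 56307 to 74758, with 4 of 10 called higher, 2 lower, and Dpt under the filter. Smooth muscle and pericyte markers summed to 30758 to 36293 and to 34153 to 39145, with 0 of 9 called and Myh11 under the filter.

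Markers of the cells known for beta3 integrin were in part under the filter. Osteoclast markers summed to 1938 to 2016 in wild type and 2278 to 2693 in KO, higher on every KO array. Among them Calcr, Ocstamp, Dcstamp, Atp6v0d2 and Mmp9 were under the filter. Ctsk, which encodes the protease cathepsin K, was the largest part of the sum and read 1161 to 1756 over the 6 arrays. Its groups overlapped, with means of 1308 and 1502 (0.18, adjusted p = 0.493, limma). Acp5 had means of 122 and 124 (0.06, adjusted p = 0.931). Of the 9, only 1, Nfatc1, was called higher (0.53, adjusted p = 0.0304). Platelet and megakaryocyte markers, with Gp9 and Ppbp under the filter, summed to 564 to 714 and to 565 to 643, with 0 of 6 measured called. Macrophage markers summed to 792 to 1029 and to 861 to 1269, with 0 of 12 called and Itgam, Ptprc, Fcgr1, C1qa and C1qc under the filter. Of 9 endothelial markers 8 were under the filter, and the sums were 327 to 459 and 258 to 516. Only Kdr was tested, and it was not called. Among the untested ones Esam was lower on every KO array (-2.47, adjusted p = 0.0458, limma without the filter). Tie1 was higher on every KO array, and the groups overlapped on the others.

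**Figure D4:**
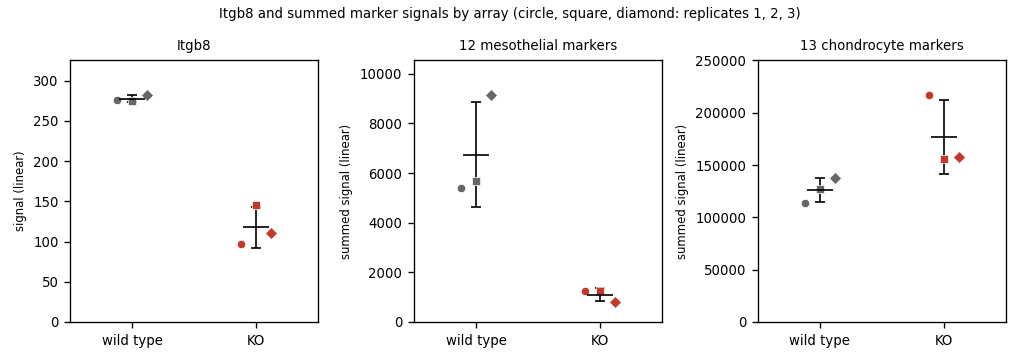
Signal of Itgb8 and summed signals of 12 mesothelial and 13 chondrocyte markers (y axes, linear, from 0) on the 3 wild-type and 3 KO arrays, with the mean and SD as bars. Itgb8 and the mesothelial sum are lower on all KO arrays, and the chondrocyte sum is higher on all of them.

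The genes whose log2 values over the 6 arrays were most like those of Itgb8, by Pearson's r among 23293 other tested probe sets, were Malt1 (r = 0.997), Vcl (0.996), Tpi1 (0.996), Gng12 (0.996) and Klf4 (0.995). With 6 arrays in 2 groups, these correlations mostly carry the difference between the groups and are a description. The log2 fold changes were -0.53, -0.76, -0.62, -0.36 and -1.03, against -1.20 for Itgb8. Vcl was also among the actin-linkage genes called lower.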

How the data were processed

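Total RNA was labelled as biotinylated cRNA and hybridized to 6 Affymetrix mouse genome arrays. Per the submitters' processing notes, the deposited values are MAS5 intensities (version not stated), whereas the study's methods name gcRMA. The deposited intensity values are linear, and every array had a trimmed mean of 500.003 (without the 2% at each end), so they were used as scaled by the authors. No scanner files or detection calls were used here. The number of arrays limits the precision.

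Of 45101 probe sets, 34958 had 1 symbol in the array annotation, 932 had several and 9211 none; 34754 matched RefSeq by Entrez identifier and 0 symbols changed. The 13 controls among those with 1 symbol were left out. Values were taken as log2(signal + 7.96), the pseudocount being the 10th percentile of all values, and those whose mean fell below the 40th percentile (5.80, a signal of 47.9) were dropped. This left 23294 probe sets of 12715 genes. A fold change on this scale understates the change of dim genes. KO was set against wild type in R 4.3.3 using limma 3.58.1 (lmFit, eBayes with a trend, no covariate), with Benjamini-Hochberg adjustment over all tested probe sets and a threshold of 0.05. The scripts were tested on simulated data.

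The 8 integrin genes and the gene lists were chosen with earlier results of these data known. Named were all 8 genes with every probe set, Slc39a13, up to 4 called genes of largest change in each related list (up to 2 of lowest p where none was called), and the 5 genes most correlated with the integrin probe set of lowest p. Spp1, Fbn1, Lrrc32, Fermt1, Ptk2 and Gp1ba had no probe set with 1 symbol in the annotation used and were not analysed here. The alternatives were other pseudocounts, filters, scalings, probe set rules and tests, a replicate block and leaving out arrays.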

Additional observations from a re-analysis of the deposited data

How the results depend on the processing

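The lower Itgb8 signal kept its direction under all 20 alternatives, with log2 fold changes from -1.36 to -1.08, and its side of the threshold under 14 of them. It was no longer called without the trend (-1.20, adjusted p = 0.0533), with the methods' t-test adjusted by Benjamini-Hochberg (-1.20, 0.0878) and without both arrays of high Xist (-1.35, 0.0742). Leaving out 1 array gave -1.36 to -1.08, and the wild-type arrays each ended the call. The count of integrin probe sets called lower was then 0 in these settings (0 to 1 over single arrays left out), and 2 with the unadjusted t-test, which called 3 higher. Slc39a13 was also not called by the adjusted t-test (-2.67, adjusted p = 0.0727), nor were 10 of the 11 named list probe sets, Dab2 being the exception.

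Over the 4 related lists, 14 probe sets were called lower and 9 higher. The lower count was 7 with median centring, 7 with the brightest probe set of each gene, 5 with probe sets averaged by gene, 1 without the trend, 1 with the adjusted t-test, 2 without both high-Xist arrays, and 4 to 16 with 1 array left out. The higher count was 0 with median centring, without the trend, with the adjusted t-test and without both high-Xist arrays, 15 with the unadjusted t-test, and 3 to 12 with 1 array left out. With a replicate block the lower count was 7 and Itgb8 was still called (adjusted p = 0.0327), while over all tested probe sets the calls became 415 higher and 422 lower. The deviations of same-numbered arrays from their group means correlated at 0.03, 0.01 and -0.05, so the numbers were not taken as pairs. The calls over all probe sets were 47 and 61 without the trend, 45 and 39 with the adjusted t-test, and 90 and 96 without both high-Xist arrays.

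Of 233 values of the other integrin probe sets, 218 kept direction and call, 4 passed the threshold with the unadjusted t-test and 11 changed sign. The sign of Itgav 1452784_at turned with median centring (-0.067), without both high-Xist arrays (-0.10), and within a range of -0.044 to 0.070 over single arrays left out. The same range was -0.15 to 0.17 for Itgav 1421198_at, -0.37 to 1.08 for Itga4 1436037_at, -0.018 to 0.23 for Itgb5 1456195_x_at and -0.13 to 0.35 for Itga9 1460285_at. The causes were not tested.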
